A study of Homo sapiens with 6 samples.

Results

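The genes described are 8 genes of thiamine (vitamin B1) biology: the transporters SLC19A2 and SLC19A3, the thiamine triphosphatase THTPA, and 5 genes for enzymes or enzyme chains that depend on thiamine diphosphate, namely TKT, PDHA1, PDHB, OGDH and BCKDHA. They were selected by gene symbol and make up 8 of the 31785 rows of the table. The set was chosen from the pathway with results of the same knockdown contrast already known, so the differences of the 8 genes are given as descriptions, without p-values.

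RNA sequencing had been performed on 6 libraries of D283 Med, an established cell line from a paediatric medulloblastoma that the study places in Groups 3 and 4. The WT group held 3 libraries of genotype WT per the labels, and the other 3 libraries were labelled as knockdown of Musashi-1 (MSI1), an RNA-binding protein. Both groups were grown in DMEM/F12 with serum. The labels name neither the knockdown agent nor a control construct, and they do not say whether libraries came from separate cultures, so the spread between libraries may be partly technical.

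Thiamine enters cells through 2 related carriers, encoded by SLC19A2 and SLC19A3, and is converted in the cytosol to thiamine diphosphate, the coenzyme form. Part of it stays in the cytosol on transketolase, which moves carbon units between sugars of the pentose phosphate pathway. Another part acts in mitochondria, where the E1 components of the pyruvate, 2-oxoglutarate and branched-chain keto acid dehydrogenases use it to decarboxylate their substrates. THTPA hydrolyses thiamine triphosphate, a minor form.

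Reads recovered from the deposited values summed to 17299671 to 38790342 per library over the rows of the table. Within a group the libraries correlated across genes with r of 0.978 to 0.994. MSI1 mRNA in the libraries labelled knockdown was 85.2% of WT, at 1288 ± 94.3 against 1512 ± 116 normalised reads (SD, n = 3 each). Its groups overlapped, so this mRNA check does not separate the groups. Every direction below follows the labels of the knockdown libraries, with the WT columns assigned by elimination. Of 6 markers listed for the line, OTX2, MYC, NES and CRX were above the expression filter. EOMES and LMX1A of the same list were below it, at up to 14.6 normalised reads in a group mean. The 6 markers of the line summed to 43313 to 50410 normalised reads in WT and 56912 to 64467 in knockdown, and the groups were apart in OTX2 (1.28-fold) and MYC (1.39-fold), neither of them called by limma (adjusted p under 0.05). Summed blood cell markers reached at most 2.93 normalised reads in any library. Of 3 astrocyte markers only SLC1A3 was above the expression filter (477 to 1069 summed reads in WT and 582 to 693 in knockdown), of 3 endothelial markers only VWF (102 to 206 and 128 to 195), and of 4 fibroblast markers 3 were (992.7 to 1300 in WT and 708 to 1021 in knockdown). The part of any of these markers in a difference was not tested.

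The members differed by nearly 3 orders of magnitude in level. On the scale of normalised reads per kilobase of transcript in WT (the longest principal coding transcript of GENCODE 29), TKT stood highest at 3707 ± 347 (SD, n = 3), at percentile 97.2 of 11779 tested genes with a known length. PDHA1 followed at 1038 ± 277 and PDHB at 922 ± 90.4, whose ranges overlapped, so these neighbours did not differ beyond their spread. OGDH had 583 ± 90.6, SLC19A2 254 ± 25.0 and THTPA 103 ± 17.6 reads per kilobase. BCKDHA, at 10.3 ± 3.16, and SLC19A3, at 5.74 ± 1.89, were at the bottom, at percentiles 2.11 and 0.628. The first position and those of OGDH, SLC19A2 and THTPA were the same in all 6 libraries. PDHA1 and PDHB changed places in WT 2 and knockdown 3, and BCKDHA and SLC19A3 did so in knockdown 2.

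**Figure D1:**
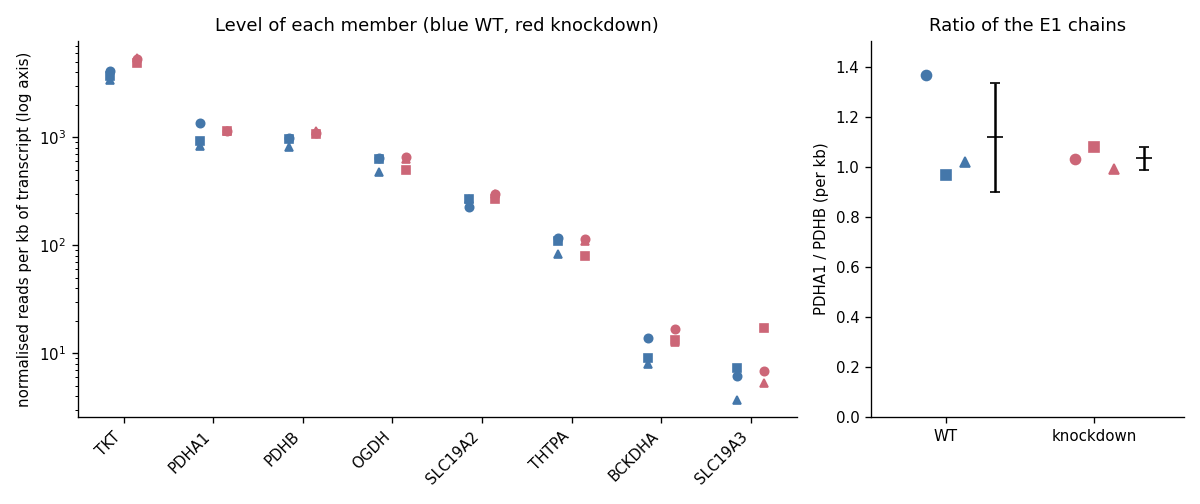
Left, normalised reads per kilobase of transcript for each of the 8 genes on a log axis, with WT libraries in blue and knockdown libraries in red (circle, square and triangle for replicates 1, 2 and 3). Right, the PDHA1 to PDHB ratio within each library with mean ± SD; TKT leads in every library, and WT 1 alone has a ratio above 1.1.

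Part of this order touches the annotation. In GENCODE 29, 77.2% of the exonic bases of the BCKDHA transcript are also exon of AC011462.1, a coding gene on the same strand that is not analysed here, and 55.1% of the THTPA transcript is shared with ZFHX2-AS1 on the same strand. On the opposite strand MAP3K15 covers 28.9% of the PDHA1 transcript, AP1G2 and ZFHX2 together 27.7% of THTPA, and AC135507.1 covers 9.30% of PDHB. SLC19A2, SLC19A3, TKT and OGDH share no exonic base with another gene. The assignment of reads in shared exons and any use of strand are details not given in the sources used here. The levels of BCKDHA and THTPA are therefore uncertain, and the part of the overlaps in them was not tested.

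No member passed the test of knockdown against WT over all genes, while BCKDHB and PDK1, among the other pathway genes, did. Of the 8 members 7 were kept by the expression filter (a mean at least 1 above the lowest value of the log2-like scale, or about 27.6 normalised reads), and BCKDHA fell just below it. None of the 7 was called (limma, adjusted p under 0.05), where 4.10% of 13558 tested genes were. At an unadjusted p under 0.05 there was 1, TKT, against 22.0% of all tested genes. At the adjusted threshold limma voom on recovered reads also called 0 of the 7. Quantile normalization and the fit without WT 1 each called 1. In 2 of the 7, TKT and PDHB, the groups did not overlap, against 27.8% of all tested genes. The median difference over the 7 was 0.17 on the deposited scale, with 6 of 7 higher in knockdown, beside a median of 0.01 over all tested genes, of which 51.0% were higher. Because the set was put forward with this contrast known, nothing is read from these counts.

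**Figure D2:**
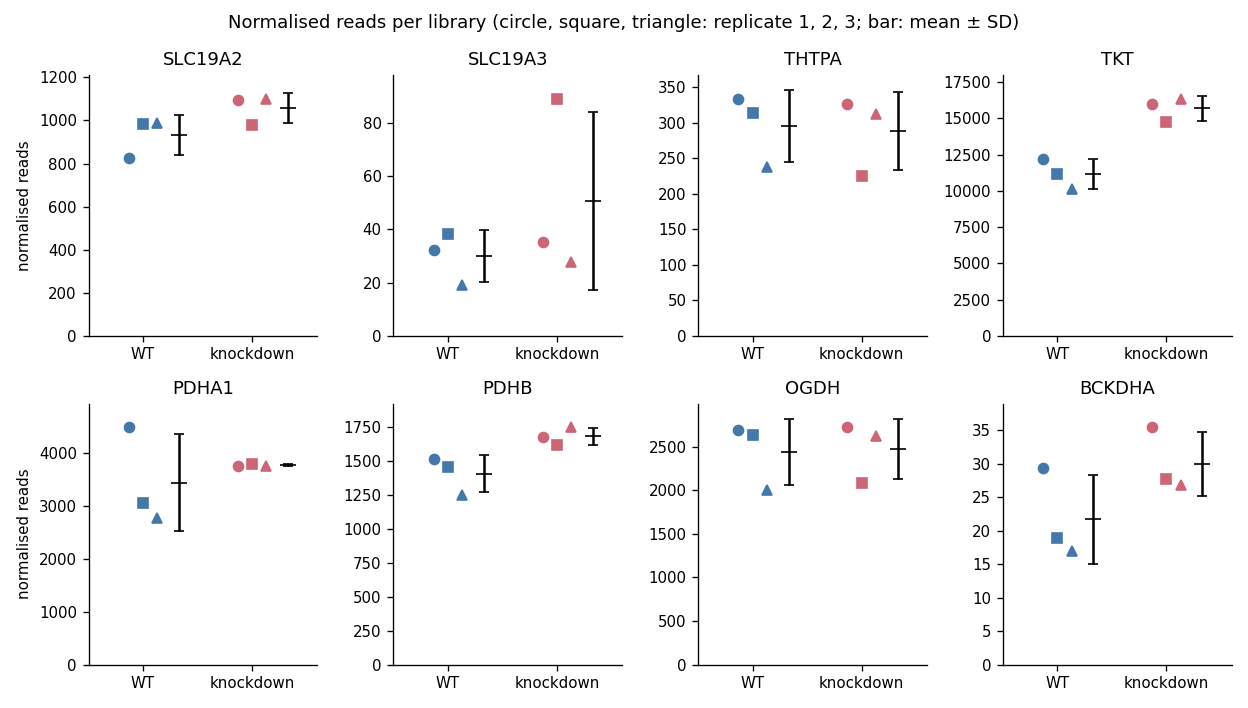
Normalised reads of each of the 8 genes in every library (y axis from 0, one panel per gene), WT in blue and knockdown in red, with mean ± SD (n = 3) beside each group. TKT and PDHB are the panels where the kept genes' groups are apart, and SLC19A3 has a single high library, knockdown 2.

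TKT and PDHB, whose groups were apart, lie on the short arm of chromosome 3, at 53224707 to 53256052 and 58427630 to 58433857 on the minus strand (GRCh38, GENCODE 29). BCKDHB, at 80106647 to 80346270 on the plus strand of chromosome 6, is the E1 chain that passed the test. Their promoter windows are shown to place these genes, which stood apart between the groups, side by side. They were picked by that outcome, and PDK1 and other pathway genes whose groups were apart are not shown. The sequences are from RefSeq (GRCh38.p14), 250 bases before to 50 after the first listed start, at chr3:53255973-53256272 and chr3:58433783-58434082 on the minus strand and chr6:80106421-80106720 on the plus strand. Capitals mark GGGCGG (the GC box) or its complement CCGCCC, the CACGTG E-box, which reads the same on both strands, and CCAAT or its complement ATTGG, and neighbouring GC boxes share bases.
TKT: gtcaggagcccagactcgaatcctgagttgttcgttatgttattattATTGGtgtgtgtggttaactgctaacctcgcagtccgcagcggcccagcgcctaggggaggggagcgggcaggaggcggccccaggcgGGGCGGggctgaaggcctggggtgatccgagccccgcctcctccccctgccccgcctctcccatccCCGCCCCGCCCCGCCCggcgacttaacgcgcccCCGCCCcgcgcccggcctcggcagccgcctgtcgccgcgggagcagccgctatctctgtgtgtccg
PDHB: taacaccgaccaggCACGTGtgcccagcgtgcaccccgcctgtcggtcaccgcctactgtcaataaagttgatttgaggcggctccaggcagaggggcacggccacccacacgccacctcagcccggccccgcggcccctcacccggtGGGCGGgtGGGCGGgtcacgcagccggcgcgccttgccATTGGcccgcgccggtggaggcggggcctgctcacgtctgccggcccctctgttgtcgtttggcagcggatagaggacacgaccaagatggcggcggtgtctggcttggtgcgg
BCKDHB: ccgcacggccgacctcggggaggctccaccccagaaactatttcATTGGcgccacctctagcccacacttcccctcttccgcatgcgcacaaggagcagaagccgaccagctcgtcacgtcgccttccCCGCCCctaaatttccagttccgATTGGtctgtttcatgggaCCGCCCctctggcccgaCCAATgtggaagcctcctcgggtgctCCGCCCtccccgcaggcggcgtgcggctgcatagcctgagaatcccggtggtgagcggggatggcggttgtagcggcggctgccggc

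The 3 windows held 31, 31 and 27 CpG dinucleotides in TKT, PDHB and BCKDHB, at percentiles 79.6, 79.6 and 72.1 of 27305 promoters of the same length, whose median was 14. TKT held 5 GC boxes, PDHB 2 and BCKDHB 3. A GC box occurred in 44.6% of all promoters. The E-box was found in PDHB alone of the 3, and in 7.43% of all promoters. CCAAT was found once in TKT, once in PDHB and in 3 places in BCKDHB, and in 35.7% of all promoters. Of the members whose groups overlapped, PDHA1 held 2 GC boxes and 1 CCAAT, and SLC19A2 held 1 and 2. SLC19A3 held 1 and 0, and BCKDHA 0 and 1. Promoters of 7 of the 8 members were matched, and in 6 of them CpG counts ran from 13 in BCKDHA to 31 in TKT, PDHA1 and PDHB. SLC19A3 had 18 and SLC19A2 24. The RefSeq window listed for THTPA ends at 23511809 on chromosome 14, upstream of the GENCODE gene that starts at 23555988, so its counts are left out. The BCKDHA window, at 41397568 to 41397867 on chromosome 19, lies inside the GENCODE gene. It does not cover the start of that gene at 41397460. These matches describe the letters of the windows only.

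Of the 2 thiamine carriers, SLC19A2 had the higher mRNA level per kilobase in every library. SLC19A2, the high-affinity thiamine carrier 1, lies at 169463909 to 169486003 on the minus strand of chromosome 1. It had 827, 984 and 988 normalised reads in WT libraries 1 to 3, and 1097, 980 and 1102 in knockdown libraries 1 to 3. WT 1 was lowest and knockdown 2 lay within the WT range, so the groups overlapped. Knockdown was 1.14-fold WT by the ratio of means, a difference of 0.17 (SE 0.12) on the deposited scale.

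SLC19A3, the second thiamine carrier, lies at 227683763 to 227718031 on the minus strand of chromosome 2 and is the gene of biotin-thiamine-responsive basal ganglia disease. It had 32.2, 38.5 and 19.2 normalised reads in WT libraries 1 to 3, and 35.4, 89.3 and 27.9 in knockdown libraries 1 to 3, from 22 to 71 reads per library. Knockdown 2 was high and the other 5 libraries overlapped. The difference of 0.26 (SE 0.19) became 0.04 (SE 0.15) without knockdown 2, where the knockdown mean was 31.7 against 30.0 in WT. It reached 0.40 without knockdown 3, and limma voom on recovered reads gave 0.59 on the log2 scale, since the deposited scale compresses low levels. SLC19A3 was kept by the filter only narrowly. Per kilobase, SLC19A2 exceeded SLC19A3 by 36.5, 36.3 and 73.1 times in WT libraries 1 to 3, and by 44.0, 15.6 and 56.1 times in knockdown libraries 1 to 3, a ratio whose groups overlapped.

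THTPA, at 23555988 to 23560271 on the plus strand of chromosome 14, had 334, 313 and 238 normalised reads in WT libraries 1 to 3, and 326, 225 and 312 in knockdown libraries 1 to 3. The low libraries were WT 3 and knockdown 2, and the groups covered the same range. The difference was −0.03 (SE 0.16), and the model's 95% interval ran from −0.37 to 0.32 on the deposited scale.

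Among the enzymes, transketolase had the widest difference of the kept members on the deposited scale, whereas SLC19A3 stood wider by the ratio of means (1.70 against 1.41) and by limma voom (0.59 against 0.49). TKT had 12205, 11148 and 10119 normalised reads in WT libraries 1 to 3, and 15971, 14746 and 16368 in knockdown libraries 1 to 3. All knockdown libraries lay above all WT libraries. The means were 11157 ± 1043 and 15695 ± 846 (SD, n = 3), a 1.41-fold level and a difference of 0.49 (SE 0.13) that did not reach the call over all genes. TKT was past the threshold in 2 of 14 alternative fits, quantile normalization and the fit without WT 1. Over all genes these fits called 613 and 726, against 556 in the main fit. As the set was chosen with this contrast known, nothing is read from these passes.

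The genes whose profile over the 6 libraries was most like that of TKT, among 10871 genes, were SNCAIP, which encodes synphilin-1 (Pearson r = 0.996), KLHDC2, a substrate receptor of a ubiquitin ligase (0.994), and RPL39L, a paralog of ribosomal protein L39 (0.993). SNCAIP had 173, 153 and 98.2 normalised reads in WT libraries 1 to 3, and 347, 280 and 367 in knockdown libraries 1 to 3. As in TKT, WT 3 was lowest within WT and knockdown 2 lowest within knockdown. These r values describe 6 points in 2 groups, and a gene that is higher in every knockdown library will tend to score high.

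The mitochondrial pyruvate dehydrogenase joins glycolysis to the citric acid cycle, and its E1 component is a heterotetramer of chains from PDHA1 and PDHB. PDHB, the beta chain, had 1512, 1459 and 1251 normalised reads in WT libraries 1 to 3, and 1679, 1620 and 1749 in knockdown libraries 1 to 3. The groups were apart by a narrow margin, between WT 1 and knockdown 2. Knockdown was 1.20-fold WT, a difference of 0.24 (SE 0.11).

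PDHA1, the X-linked alpha chain that carries the regulatory phosphorylation sites (19343893 to 19361705, plus strand), had 4483, 3057 and 2770 normalised reads in WT libraries 1 to 3, and 3754, 3789 and 3756 in knockdown libraries 1 to 3. WT 1 stood above all other libraries, whereas the knockdown libraries were close together (SD 19.7 against 918 in WT). The difference was 0.16 (SE 0.16), and 0.36 (SE 0.10) without WT 1. It was 0.09 without WT 2 and 0.02 without WT 3. Within libraries the PDHA1 to PDHB ratio per kilobase was 1.37, 0.967 and 1.02 in WT libraries 1 to 3, and 1.03, 1.08 and 0.991 in knockdown libraries 1 to 3. This ratio does not depend on the scaling between libraries, but its level rests on the transcript lengths used (3310 bases for PDHA1 and 1527 for PDHB) and on the PDHA1 exons shared with MAP3K15. Without the length correction it was 2.96, 2.10 and 2.21 in WT and 2.24, 2.34 and 2.15 in knockdown libraries 1 to 3. On either scale WT 1 was highest and the groups overlapped.

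OGDH encodes the E1 enzyme of the 2-oxoglutarate dehydrogenase complex in the citric acid cycle and lies at 44606572 to 44709066 on the plus strand of chromosome 7. It had 2684, 2631 and 2003 normalised reads in WT libraries 1 to 3, and 2720, 2079 and 2624 in knockdown libraries 1 to 3. Its low libraries were WT 3 and knockdown 2, as for THTPA, and the groups covered the same range. The difference was 0.02 (SE 0.15, 95% interval −0.31 to 0.35).

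BCKDHA, the alpha chain of the branched-chain E1 at 41397460 to 41425005 on the plus strand of chromosome 19, had 29.3, 18.9 and 16.9 normalised reads in WT libraries 1 to 3, and 35.4, 27.7 and 26.8 in knockdown libraries 1 to 3. These rest on 20 to 35 reads per library, and WT 1 lay within the knockdown range. It was not tested because of the filter. The difference on the deposited scale was 0.15 (SE 0.15).

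BCKDHB, the beta chain that forms the same E1 heterotetramer, rose in knockdown. It had 1117, 1087 and 825 normalised reads in WT libraries 1 to 3, and 1622, 2134 and 1926 in knockdown libraries 1 to 3, with no overlap. The means were 1010 ± 161 and 1894 ± 257 (SD, n = 3), a 1.88-fold rise and a difference of 0.84 (SE 0.15, limma adjusted p = 0.0154, range over 14 alternatives 0.0032 to 0.0674). The call was lost without knockdown 1, 2 or 3 (adjusted p = 0.0510, 0.0673 and 0.0674). The difference in these fits was 0.95, 0.76 and 0.83, and they called 56, 126 and 92 of all genes, against 556 in the main fit. Per kilobase in WT, BCKDHB stood 26.5 times above BCKDHA, beside the shared exons of BCKDHA given above. The BCKDHA to BCKDHB ratio was 0.0460, 0.0305 and 0.0359 in WT libraries 1 to 3, and 0.0383, 0.0228 and 0.0245 in knockdown libraries 1 to 3, and these groups overlapped.

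**Figure D3:**
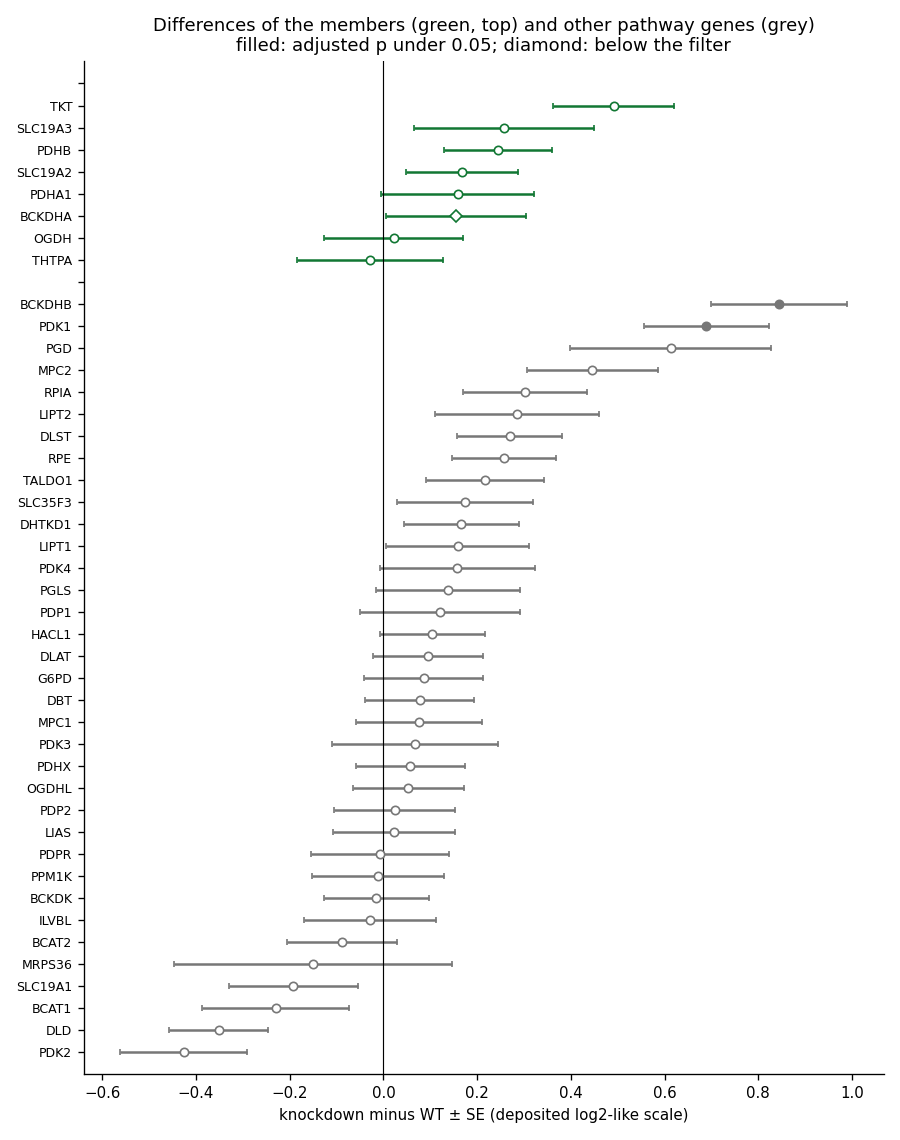
Knockdown minus WT on the deposited log2-like scale, with SE from limma, for the 8 thiamine genes (green) and 35 other tested pathway genes (grey); filled points passed the test over all genes and the diamond is BCKDHA, below the filter. The filled points are BCKDHB at 0.84 and PDK1 at 0.69, and TKT at 0.49 is the furthest right of the green points.

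The other genes of the pathway were taken from 8 lists of 40 genes, of which 37 were in the table and 35 were tested. These lists, too, were chosen by pathway with earlier results of these data known. The counts and p-values of their genes, BCKDHB and PDK1 among them, carry that limit. Of the 35, 2 rose and none fell (limma, adjusted p under 0.05), and at an unadjusted p under 0.05 there were 7 higher and 2 lower. Over all 13558 tested genes the shares were 4.10% and 22.0%, so the lists lay near the background, and both calls were lost when knockdown 1, 2 or 3 was left out. The groups did not overlap in 9 of the 35, against 27.8% of all tested genes. In all 25 were higher and 10 lower, with a median difference of 0.09, beside 51.0% higher and a median of 0.01 over all tested genes.

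In the list of pyruvate dehydrogenase regulators and pyruvate entry, 1 of 9 rose. PDK1, a kinase that phosphorylates and inhibits PDHA1, had 533, 449 and 524 normalised reads in WT libraries 1 to 3, and 737, 956 and 934 in knockdown libraries 1 to 3, with no overlap. It rose 1.74-fold (difference 0.69, SE 0.13, limma adjusted p = 0.0257, range over 14 alternatives 0.0101 to 0.114). The call was lost without WT 2 (adjusted p = 0.0677), without knockdown 1, 2 or 3 (0.0566, 0.0924 and 0.114) and in the fit blocked on replicate number (0.0572). With a library left out the PDK1 difference ran from 0.62 to 0.80. PDK2, another such kinase, lay the other way, at 787 ± 99.6 normalised reads in WT and 560 ± 70.2 in knockdown (−0.43, SE 0.14), and missed the threshold (limma adjusted p = 0.107). MPC2, a subunit of the mitochondrial pyruvate carrier, was at 586 ± 95.8 and 833 ± 92.9 (0.45, SE 0.14, limma adjusted p = 0.103).

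**Figure D4:**
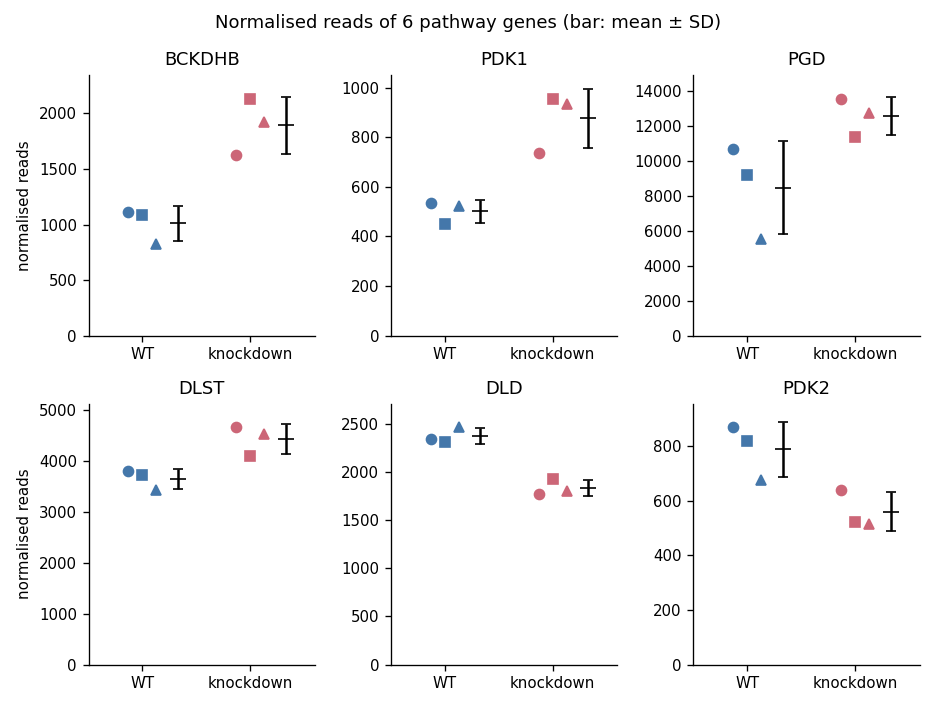
Normalised reads in every library for BCKDHB, PDK1, PGD, DLST, DLD and PDK2, with mean ± SD (n = 3) beside each group and the y axis from 0. The WT and knockdown libraries do not overlap in these 6 panels, drawn from the 9 of 35 pathway genes where that was so, and BCKDHB and PDK1 are the ones that passed the test.

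None of the 3 tested partners in the pyruvate dehydrogenase complex was called. DLAT, the E2 core, stood at 2144 ± 249 (WT) and 2288 ± 68.2 (knockdown) normalised reads (0.10, SE 0.12). DLD, the E3 dihydrolipoamide dehydrogenase that all 3 keto acid dehydrogenase complexes share, had 2338, 2307 and 2462 in WT libraries 1 to 3, and 1770, 1929 and 1803 in knockdown libraries 1 to 3. Its groups were apart, with knockdown at 77.4% of WT (−0.35, SE 0.11), and it missed the threshold (limma adjusted p = 0.0904).

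In the 2-oxoglutarate list none of 5 was called, and the most abundant was DLST, the E2 succinyltransferase, at 3657 ± 198 and 4434 ± 300 normalised reads (0.27, SE 0.11, limma adjusted p = 0.194). Of 7 branched-chain genes, BCKDHB was the 1 that rose. A negative difference was found in 5, none of them called, and the median over the 7 was −0.02. Of all tested genes 51.0% were higher. The most abundant there was BCAT1, the cytosolic branched-chain aminotransferase, at 9886 ± 1757 and 8349 ± 866 (−0.23, SE 0.16).

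None of the 6 tested pentose phosphate genes passed the test, and all 6 had a positive difference (median 0.24), where 51.0% of all tested genes did. At an unadjusted p under 0.05 there were 3 of the 6, against 22.0% of all tested genes. PGD, 6-phosphogluconate dehydrogenase of the oxidative branch, had 10669, 9212 and 5505 normalised reads in WT libraries 1 to 3, and 13565, 11374 and 12738 in knockdown libraries 1 to 3. WT 3 was far below the other libraries, and the difference was 0.61 (SE 0.21, limma adjusted p = 0.134). RPE and RPIA, the epimerase and isomerase that supply sugars to transketolase, differed by 0.26 (SE 0.11) and 0.30 (SE 0.13). The transketolase homologue TKTL1 had at most 1.01 normalised reads in a library.

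Neither of the 2 tested genes of the transport list that are reported here was called. SLC19A1, the reduced folate carrier related to both thiamine carriers, had 2100 ± 225 and 1831 ± 282 (−0.19, SE 0.14). Neither of the other thiamine diphosphate enzymes was called, with ILVBL, a lyase of 2-hydroxy fatty acids, at 1859 ± 265 and 1820 ± 252. Of 3 lipoylation genes none was called, and LIAS, lipoic acid synthase, had 381 ± 51.3 and 387 ± 23.9 normalised reads.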

How the data were processed

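RNA sequencing of 6 D283 Med libraries, 3 WT and 3 knockdown, was read from 1 deposited table of log2-like values, which the authors had scaled by size factors and variance-stabilised, going by the file's name and values. Per the submitters' processing notes, the build was GRCh38 and the tools included STAR, DESeq, Trim Galore and CASAVA 1.8.2; for the read counter, annotation and strand setting the sources used here give nothing. The WT columns carry an unexplained heading and were assigned by elimination. Their replicate numbers are those of the column headings, which the labels do not tie to single samples. Inverting the stabilising function (offset 55.2) gave normalised reads, and 100% of values became whole reads (tolerance 0.01); normalised reads, per-kilobase levels and folds of group means come from them.

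Differences were fitted with limma 3.58.1 in R 4.3.3 (mean-variance trend, two-sided, no covariates) on 13558 rows, Benjamini-Hochberg adjusted over all of them; 18227 low rows were left out. With 3 libraries a group, the smallest exact permutation p is 0.1. The fit was checked on simulated data in which only abundant genes were changed. That check does not cover genes at low levels or small differences. Members, lists and rules were chosen with earlier results of these data known. Named were the members, called list genes, the most abundant gene of lists without a call, the 3 genes most like the member with the widest difference, and MSI1; others (BCAT1, DLD, PDK2, MPC2, RPE, RPIA, TKTL1) were named after their values were seen. Some genes of the lists are not reported here and enter no list count. Alternatives were other filters, scalings and variance models, limma voom on recovered reads, the replicate number as a block, and each library left out.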

Additional observations from a re-analysis of the deposited data

How the results depend on the processing

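The 556 calls over all genes became 221 with the replicate number as a block and 56 to 726 when each library was left out, lowest without knockdown 1. The 2 calls among the pathway genes became 1 with the replicate block (PDK1 lost its call, adjusted p = 0.0572, limma) and 0 to 2 with a library left out, 0 without knockdown 1, 2 or 3 and 1 without WT 2. Deviations of same-numbered WT and knockdown libraries correlated at −0.0045, −0.253 and 0.0046, and no library correlated best with its own number. With 3 libraries a group, centred on the group mean, these values cannot settle whether the libraries were paired. Other filters, scalings, variance models and limma voom kept both counts within 1.5 times.

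The median difference of the kept members ran from 0.15 to 0.28 with a library left out. OGDH (−0.11 to 0.14) and THTPA (−0.14 to 0.10) changed sign there, and PDHA1 ran from 0.02 to 0.36. The log2 change of the PDHA1 to PDHB ratio (−0.10) ran from −0.19 to 0.06, and that of BCKDHA to BCKDHB (−0.41) from −0.65 to −0.26, on 20 to 35 reads per library for BCKDHA. In the WT order of levels, PDHA1 and PDHB exchanged ranks 2 and 3 without WT 1. Without length correction PDHB ranked 4, OGDH 3, SLC19A3 7 and BCKDHA 8.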
